A study of Mus musculus with 10 samples.

Results

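In all, 10 genes for neuronal RNA-binding proteins were followed in sorted neural crest cells of mouse embryos, with and without activation of the transcription factor p53. They are the ELAVL genes Elavl1, Elavl2, Elavl3 and Elavl4, the NOVA genes Nova1 and Nova2, the CELF genes Celf3, Celf4 and Celf5, and Rbfox2. These 10 genes were taken by symbol from the 49671 genes of the deposited table, and all 10 were among the 14528 genes with enough counts to be tested. RNA came from single embryos at embryonic day 10.5 on a mixed 129/Sv-C57BL/6 background, 1 library per embryo. The 5 control embryos, littermates of the others, were Wnt1Cre;R26mTmG;p53+/+ and the 5 embryos called p53_activated were Wnt1Cre;R26mTmG;p53LSL-25,26/+, so that both groups carried the Wnt1Cre recombinase and the R26mTmG reporter. In the second group Cre also removed a stop cassette from 1 Trp53 allele, which then made a stabilised p53 beside the protein of the normal allele. Cells were sorted for the green fluorescence that the reporter turns on after Cre. Wnt1Cre is active in the dorsal neural tube from which the neural crest arises, so the sorted cells can hold neural tube cells as well as crest and its neurons.

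RNA-binding proteins of these families decide how a transcript is spliced, how long it lasts and how well it is translated. The neuronal ELAVL proteins (HuB, HuC and HuD, from Elavl2, Elavl3 and Elavl4) appear as cells leave the cell cycle and become neurons, where they bind U-rich and AU-rich stretches of messages and keep neuronal messages stable, whereas Elavl1 encodes HuR, the form found in almost every cell. NOVA and CELF proteins regulate alternative exons in neurons, and Rbfox2 does so in neurons and in many other tissues. The name of the group therefore holds less well for Elavl1 and Rbfox2 than for the other 8 genes.

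Sequence at the starts of the ELAVL genes is shown because the counts below turn on this family, with Elavl2, Elavl3 and Elavl4 on one side and Elavl1 on the other. RefSeq promoter windows on GRCm38.p6, each of 300 bases from 250 before to 50 after a start, were used for 8 of the 10 genes. There were 26 windows in all, many of them overlapping. Celf4 was left out of the search, and no window was found for Rbfox2. The windows were searched on both strands for the E-boxes CAGCTG and CAGATG and for the p53 half-site. These E-boxes are short letters that neurogenic bHLH factors can bind. In each line 130 bases before and 20 after a start are given 5′ to 3′ on the minus strand, and capitals mark the E-boxes. They are the windows at chr8:4325081-4325230 for Elavl1, chr4:91399965-91400114 for Elavl2, chr9:22052004-22052153 for Elavl3 and chr4:110287508-110287657 for Elavl4.
Elavl1: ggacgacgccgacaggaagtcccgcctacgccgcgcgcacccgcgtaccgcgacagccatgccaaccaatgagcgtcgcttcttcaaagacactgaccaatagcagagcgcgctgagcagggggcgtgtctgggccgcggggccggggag
Elavl2: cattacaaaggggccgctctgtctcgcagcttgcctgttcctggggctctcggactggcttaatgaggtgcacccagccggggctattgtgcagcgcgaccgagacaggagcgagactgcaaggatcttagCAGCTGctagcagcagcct
Elavl3: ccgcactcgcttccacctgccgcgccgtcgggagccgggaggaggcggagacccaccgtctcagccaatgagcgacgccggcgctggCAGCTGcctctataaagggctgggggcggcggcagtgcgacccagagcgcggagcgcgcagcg
Elavl4: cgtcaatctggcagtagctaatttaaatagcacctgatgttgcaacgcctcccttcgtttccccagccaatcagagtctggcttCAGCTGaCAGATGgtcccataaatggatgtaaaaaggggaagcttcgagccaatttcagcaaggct

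The windows of Elavl2 and Elavl4 were picked, after their letters were seen, as the most upstream start with CAGCTG. Counted from the start, CAGCTG began at position 2 in Elavl2, at -43 in Elavl3 and at -46 in Elavl4, where CAGATG followed at -39. CAGCTG stood in 3 of 6 windows of Elavl2, in the 1 window of Elavl3 and in 2 of 4 windows of Elavl4, and 16.3% of all windows in the table hold it. CAGATG stood in 3 of the 4 windows of Elavl4, against 17.2% of all windows. Elavl1 and Nova2 had 1 window each, with neither E-box. Members that were not called held E-boxes as well: CAGCTG stood in the 1 window of Nova1 and in 1 of 5 of Celf5, and either E-box in 6 of 7 of Celf3, against 30.6% of all windows. The p53 half-site matched 3 windows of Elavl2, 1 of Elavl4 and 1 of the 5 of Celf5, against 8.36% of all windows. A match is a description of the letters and shows no binding.

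Library totals were 12368058 to 23514828 counts in the control group and 14644162 to 28379562 in the p53_activated group. Cdkn1a, the p53 target that encodes p21, was at 7.93 ± 1.59 CPM (counts scaled to library size, SD, n = 5) in control and 105 ± 11.9 CPM in p53_activated embryos, Mdm2, another p53 target, at 24.5 ± 1.06 and 47.3 ± 4.41 CPM, and Trp53 at 18.2 ± 5.12 and 29.1 ± 2.99 CPM. None of these 3 genes overlapped between the groups. The neural crest transcription factor genes Sox9 (46.6 to 87.4 CPM), Twist1 (42.0 to 72.5 CPM) and Tfap2b (41.2 to 63.0 CPM) were detected in every library, and none of these 3 passed the test. Control replicates 1 and 2 stood apart from the other 8 libraries by a higher ratio of the embryonic globins Hbb-y to Hbb-bh1 (4.97 and 2.69, against 1.59 to 2.08) and a lower level of the stem cell gene Lin28a (2.96 and 6.21 CPM, against 10.8 to 24.8). Values without both are given where they change an edgeR call of a member, and the loss of within-library calls is stated with those calls.

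The 3 neuronal ELAVL genes fell to between 52.7% and 61.4% of the control level, the only members called in either direction by the edgeR quasi-likelihood test at an adjusted p of 0.05. That is 3 of 10 members called, where 7.23% of all tested genes were, and 3 of 10 lower, where 2.74% of all tested genes were called lower, and 0 of 10 higher, where 4.49% were. At an unadjusted p under 0.05 the numbers were 3 lower and 1 higher, the latter Celf5. The share of all tested genes at this unadjusted threshold was not counted. DESeq2 called 3 lower and 0 higher, of 1621 genes called in all, and limma-voom 3 lower and 1 higher, of 897. The median log2 fold change over the 10 members was -0.33, against -0.01 over all tested genes. For the same 3 genes the groups did not overlap, against 8.07% of tested genes in either direction, 3.52% with p53_activated lower and 4.54% with p53_activated higher.

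Elavl4, which encodes HuD, was at 35.4, 39.7, 40.1, 46.5 and 48.3 CPM in control replicates 1 to 5 and at 23.1, 23.5, 17.6, 27.5 and 21.99 CPM in p53_activated replicates 1 to 5. Every p53_activated embryo thus lay below every control embryo, the nearest pair being control replicate 1 and p53_activated replicate 4. The group means were 42.0 ± 5.31 and 22.7 ± 3.53 CPM (SD, n = 5 each). The log2 fold change was -0.88 ± 0.13 (SE), with an edgeR adjusted p of 0.000639 and a 95% interval of -1.17 to -0.60.

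Elavl2, which encodes HuB, was at 64.5, 47.4, 46.5, 48.3 and 53.5 CPM in the control embryos and at 29.9, 31.2, 31.3, 33.1 and 34.3 CPM in the p53_activated embryos. The p53_activated values were the tightest of any member in either group, with a coefficient of variation of 5.34% against 14.4% in control. The means were 52.1 ± 7.49 and 31.97 ± 1.71 CPM, a log2 fold change of -0.70 ± 0.11 (edgeR adjusted p = 0.000943, 95% interval -0.94 to -0.47).

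Elavl3, which encodes HuC and is widely used as a mark of newborn neurons, was at 178, 248, 234, 249.8 and 232 CPM in control and at 116, 71.0, 104, 165 and 145 CPM in p53_activated embryos. The groups were separate, but control replicate 1 lay well below the other controls and p53_activated replicate 4 approached it. The means were 228 ± 29.4 and 120.3 ± 36.5 CPM, a log2 fold change of -0.92 ± 0.19 (edgeR adjusted p = 0.0116, 95% interval -1.33 to -0.51). This call was lost without a filter on low counts (-0.91, adjusted p = 0.0692) and without both control replicates 1 and 2 (-0.99, adjusted p = 0.0503). It held without each single library (adjusted p of 0.00411 to 0.0393).

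In bulk RNA of sorted cells, fewer neurons and less RNA of these genes in each neuron cannot be told apart.

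**Figure D1:**
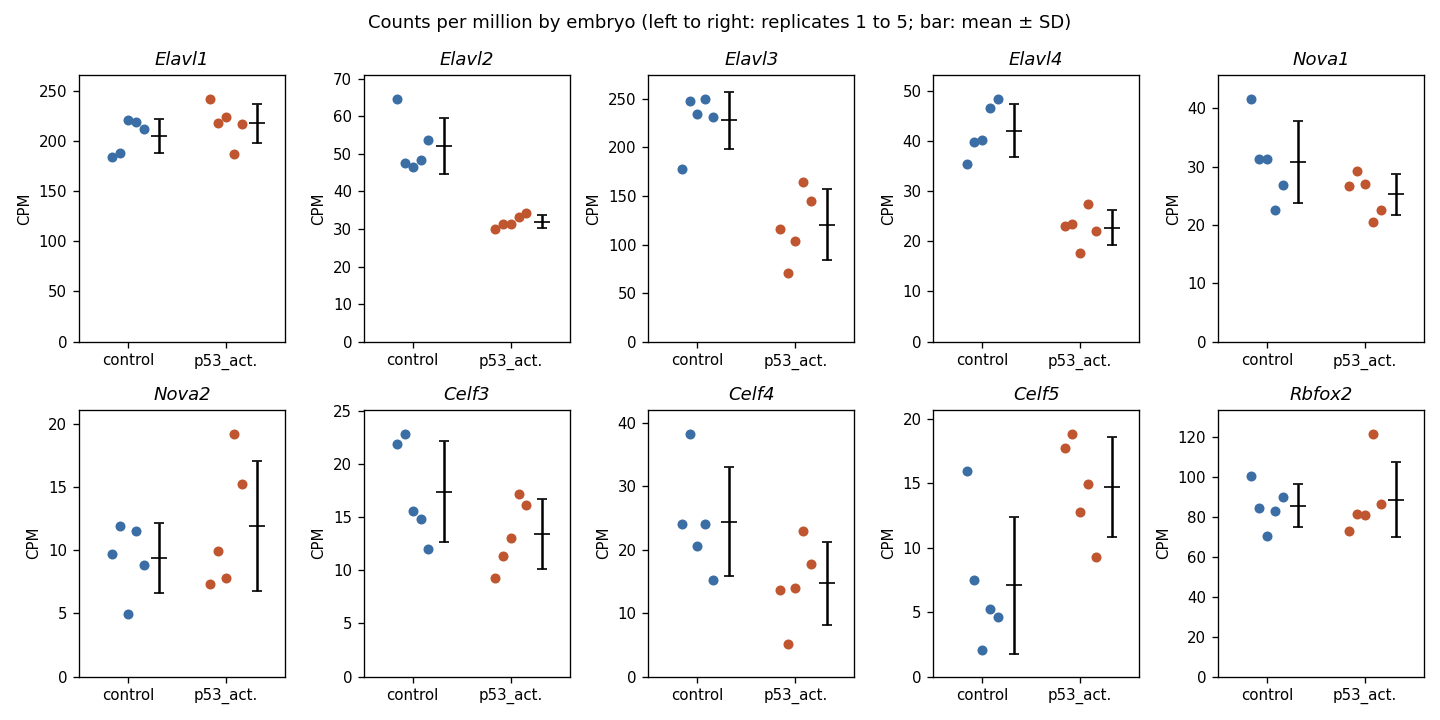
CPM (linear axis from 0) of the 10 genes, 1 panel each, with 1 point per embryo and the mean ± SD of 5 embryos beside it, for control (blue) and p53_activated (orange). Elavl2, Elavl3 and Elavl4 separate the groups, and the other 7 panels overlap.

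Elavl1, which encodes the ubiquitous HuR, did not pass the test. It was at 184, 188, 220.3, 219 and 212 CPM in control and at 242, 218, 224, 187 and 216 CPM in p53_activated embryos. The groups overlapped, with p53_activated replicate 4 the lowest of its group and control replicates 1 and 2 the lowest of theirs. The log2 fold change was 0.09 ± 0.09 (edgeR adjusted p = 0.627), with a 95% interval of -0.10 to 0.28 that leaves out changes of the size seen in the neuronal ELAVL genes. The contrast within the family was tested directly in each library. The log2 difference from Elavl1 fell by 0.78 for Elavl2, by 1.06 for Elavl3 and by 0.97 for Elavl4 between control and p53_activated embryos (exact two-sided permutation p = 0.00794 each, the smallest that 5 against 5 embryos can give, adjusted p = 0.0185 over 14 differences). In these 3 comparisons the 5 embryos of one group did not overlap the 5 of the other. None of the 3 passed without both control replicates 1 and 2, where 3 against 5 embryos give an exact p of at least 0.0357.

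Levels of different genes were compared per kilobase of exon. The length was the union of all annotated exons and isoform use was not measured, so the order is approximate. Elavl3 was the highest of the 10 in control at 33.1 ± 4.27 RPKM (CPM per kilobase). Elavl1 followed at 19.7 ± 1.66, Rbfox2 at 10.5 ± 1.35, Elavl4 at 7.80 ± 0.99 and Elavl2 at 6.26 ± 0.90 RPKM. Nova1 (3.51 ± 0.81), Celf3 (3.18 ± 0.86) and Celf4 (2.85 ± 0.99 RPKM) were lower, and Nova2 (1.12 ± 0.33) and Celf5 (1.06 ± 0.80 RPKM) lowest. Between neighbours in this order the ranges of the 5 embryos were separate from Elavl3 to Elavl1, Elavl1 to Rbfox2, Elavl2 to Nova1 and Celf4 to Nova2, and overlapped between all other neighbours. In p53_activated embryos Elavl1 (20.98 ± 1.89 RPKM) and Elavl3 (17.5 ± 5.30 RPKM) overlapped in range. Celf5 (2.21 ± 0.58 RPKM) stood above Celf4 (1.72 ± 0.76) and Nova2 (1.42 ± 0.62 RPKM), with overlapping ranges.

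Elavl2, Elavl3 and Elavl4 together were 68.9% to 73.0% of the summed ELAVL RPKM in the control embryos and 46.7% to 64.6% in the p53_activated embryos, with p53_activated replicate 4 the highest of its group. The sum over all 4 genes was 57.9 to 71.8 RPKM in control and 39.5 to 51.1 RPKM in p53_activated embryos. Within the neuronal 3, the share of Elavl3 overlapped between the groups (64.3% to 73.3% against 55.9% to 72.5%), its lowest value being in p53_activated replicate 2. These shares restate the levels above, with the same limit of exon length, and were not tested.

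**Figure D2:**
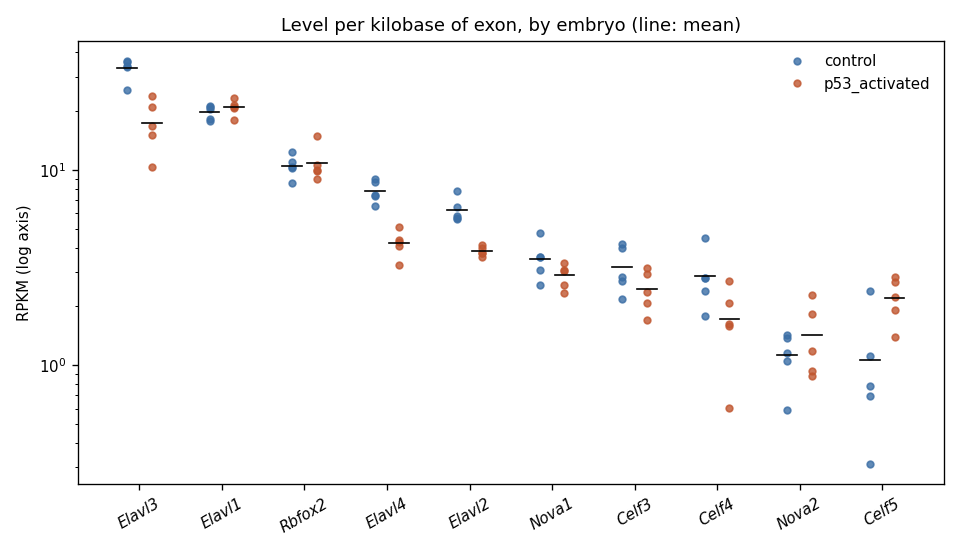
Levels per kilobase of exon (RPKM, log axis) of the 10 genes, ordered by the control mean, with 1 point per embryo and a line at the mean of 5 embryos, for control (blue) and p53_activated (orange). Elavl3 leads in control at 33.1 RPKM and falls into the range of Elavl1 in p53_activated embryos.

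Nova1 and Nova2, which encode neuronal splicing factors with KH domains, did not pass the test. Nova1 ran from 22.6 to 41.6 CPM in control (median 31.3) and from 20.5 to 29.2 CPM in p53_activated embryos (median 26.7), a log2 fold change of -0.29 ± 0.16 (edgeR adjusted p = 0.301). The highest control value was that of replicate 1, without which the difference was -0.15. Nova2 ran from 4.94 to 11.95 CPM in control and from 7.36 to 19.2 CPM in p53_activated embryos, 0.36 ± 0.29 (adjusted p = 0.523), and without p53_activated replicate 4, its highest library, the value was 0.11. Other genes share up to 31.7% of the exon length of Nova2. The one with the largest share, the antisense RNA Gm26821, is listed at 0 counts in every library. Since no source used here names the strand setting of the counting, the level of Nova2 is uncertain. The log2 difference between Nova1 and Nova2 within a library went from 1.73 ± 0.65 to 1.17 ± 0.79 (exact permutation p = 0.254, adjusted p = 0.356).

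Among the CELF genes, which encode factors of splicing and message decay, Celf3 and Celf4 had negative and Celf5 a positive log2 fold change, and 0 of the 3 passed. Celf3 ran from 11.9 to 22.8 CPM in control and from 9.29 to 17.2 CPM in p53_activated embryos, a log2 fold change of -0.37 ± 0.21 (edgeR adjusted p = 0.303). Celf4 ran from 15.3 to 38.3 CPM and from 5.20 to 23.0 CPM, -0.72 ± 0.34 (adjusted p = 0.237). Its size was close to that of Elavl2, but its spread was larger (coefficient of variation of 34.9% in control and 44.4% in p53_activated embryos). The value was -0.95 without p53_activated replicate 4 and -0.50 without control replicate 2. Without both control replicates 1 and 2, Celf3 was at -0.07 and Celf4 at -0.44.

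Celf5 was at 15.98, 7.47, 2.08, 5.23 and 4.66 CPM in control replicates 1 to 5 and at 17.8, 18.9, 12.8, 14.9 and 9.30 CPM in p53_activated replicates 1 to 5. Control replicates 2 to 5 lay below every p53_activated embryo, and control replicate 1 lay among the p53_activated embryos. The log2 fold change was 1.06 ± 0.44 with a 95% interval of 0.10 to 2.02 (edgeR adjusted p = 0.178). Without control replicate 1 it was 1.62 and passed (adjusted p = 0.00747), and without both control replicates 1 and 2 it was 1.91 (adjusted p = 0.00283). It also passed with limma-voom (1.43, adjusted p = 0.0469), and was not called by DESeq2 (1.06, adjusted p = 0.176). Other genes overlap up to 8.14% of its exon length. The one with the largest overlap, the antisense RNA Gm16105, had 4 counts over all libraries, against 1972 for Celf5.

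Rbfox2, a splicing factor of many tissues, ran from 70.1 to 100.2 CPM in control (median 84.5) and from 73.0 to 121 CPM in p53_activated embryos (median 81.3). The groups overlapped throughout, with p53_activated replicate 4 alone above the control range. The log2 fold change was 0.05 ± 0.13 (edgeR adjusted p = 0.863, 95% interval -0.23 to 0.33), and its sign turned without control replicate 3 (-0.0031) and without p53_activated replicate 4 (-0.09).

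In the authors' deposited table the adjusted p was 5.97e-07 for Elavl2, 1.9e-05 for Elavl3 and 9.7e-08 for Elavl4. The authors' deposited table gave the other 7 members adjusted p of 0.163 (Celf5) to 0.879 (Rbfox2).

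Other neuronal genes fell as well, and the ELAVL genes were compared with them. Of 12 pan-neuronal genes 6 fell by edgeR and 6 did not pass, with a median log2 fold change of -0.77. None was called higher by edgeR, DESeq2 or limma-voom, or at an unadjusted p under 0.05. DESeq2 called 8 lower and limma-voom 5. Tubb3, a neuronal tubulin, fell by 0.77 ± 0.13 (adjusted p = 0.00158), Nefm, a neurofilament, by 0.65 ± 0.13 (adjusted p = 0.00803), and Stmn2, a microtubule regulator of growing axons, by 1.03 ± 0.12 (adjusted p = 4.65e-05). Gap43, the next most abundant of the list, did not pass (-0.32, edgeR adjusted p = 0.205). The summed level of all 12 pan-neuronal genes was 657 to 906 CPM in control and 395 to 617 CPM in p53_activated embryos. Among the most abundant genes of neurogenic transcription factors, Pou4f1 (log2 fold change -0.87 ± 0.15, adjusted p = 0.00241), Isl1 (-1.13 ± 0.21, adjusted p = 0.00356) and Neurod1 (-0.85 ± 0.18, adjusted p = 0.00843) fell, and Neurog1 did not pass (-0.44, adjusted p = 0.0674). Of 9 neural progenitor genes, such as Nes and Hes5, 0 passed by edgeR, DESeq2 or limma-voom (1 higher at an unadjusted p under 0.05), with a median of 0.14.

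Within each library the log2 level of every member was set against the mean log2 level of these 12 pan-neuronal genes. All 12 had equal weight in this mean, among them the low-count genes Syt1 (6 to 31 counts per library) and Snap25 (22 to 78). Elavl2 changed by 0.09 relative to them (exact permutation p = 0.579, adjusted p = 0.624), Elavl3 by -0.19 (p = 0.333, adjusted p = 0.424) and Elavl4 by -0.11 (exact p = 0.556, adjusted p = 0.624). A difference between these genes and the neuronal genes as a whole was not detected over the 10 embryos, and the ranges of the 2 groups overlapped for each. For Elavl3 the overlap came from control replicates 1 and 2 (2.46 and 2.86), since control replicates 3 to 5 (3.30, 3.05 and 3.14) lay above all p53_activated embryos (2.31 to 2.98). Without both, the change was -0.39 for Elavl3 (adjusted p = 0.0714), -0.34 for Elavl4 (exact permutation, adjusted p = 0.10) and 0.03 for Elavl2 (adjusted p = 0.929). For Celf4 the change was -0.03 (exact p = 0.944, adjusted p = 0.944). Celf5 rose by 2.08 relative to the neuronal genes, Nova2 by 1.08 and Rbfox2 by 0.82 (exact p = 0.00794, adjusted p = 0.0185 for each). For Nova1 (0.51, exact p = 0.111, adjusted p = 0.173) and Celf3 (0.41, exact p = 0.0317, adjusted p = 0.0556) the change did not pass. Elavl1 rose by 0.87 on the same scale (exact p = 0.0159, adjusted p = 0.0317), a call that was lost on leaving out any single library other than control replicate 3 and p53_activated replicate 4 (adjusted p up to 0.0635). Celf3 passed without p53_activated replicate 1 (0.50, adjusted p = 0.0317). Without both control replicates 1 and 2, none of the changes relative to the neuronal genes passed.

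**Figure D3:**
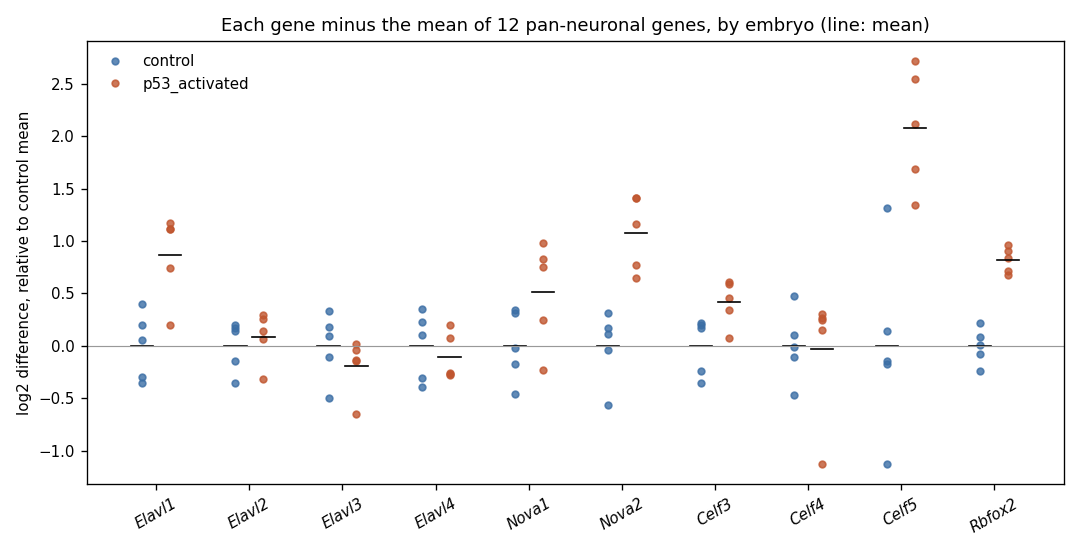
Log2 level of each of the 10 genes minus the mean log2 level of 12 pan-neuronal genes in the same library, relative to the control mean (log2 units), with 1 point per embryo and a line at the mean of 5 embryos, for control (blue) and p53_activated (orange). Elavl2, Elavl3, Elavl4 and Celf4 stay near 0 on average, and Celf5 has the highest p53_activated mean, 2.08.

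Averaged over the 12 pan-neuronal genes, log2 CPM centred on the 10 libraries lay between 0.10 and 0.62 in control, highest in replicates 2 (0.62) and 1 (0.54). This average lay between -0.63 and -0.26 in 4 p53_activated embryos. It was at 0.07 in p53_activated replicate 4, the highest of its group and below every control. The average over Elavl2, Elavl3 and Elavl4 lay between 0.34 and 0.52 in control and between -0.65 and -0.14 in p53_activated embryos, where replicate 4 was again the highest and below every control. In p53_activated replicate 4 markers of several other cell types were also high on the same centred scale. Means were 1.49 for 6 erythroid, 0.75 for 6 epithelial, 0.74 for 5 endothelial and 0.73 for 5 macrophage genes, but 0.09 for 6 muscle genes. Control replicates 4 and 5 were high as well, at 1.08 and 1.19 for the erythroid and 1.28 and 1.37 for the epithelial genes. For the endothelial genes they were at 1.02 and 0.53, and for the muscle genes at 0.72 and 0.48. The macrophage genes were highest in control replicate 1, at 1.22.

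**Figure D4:**
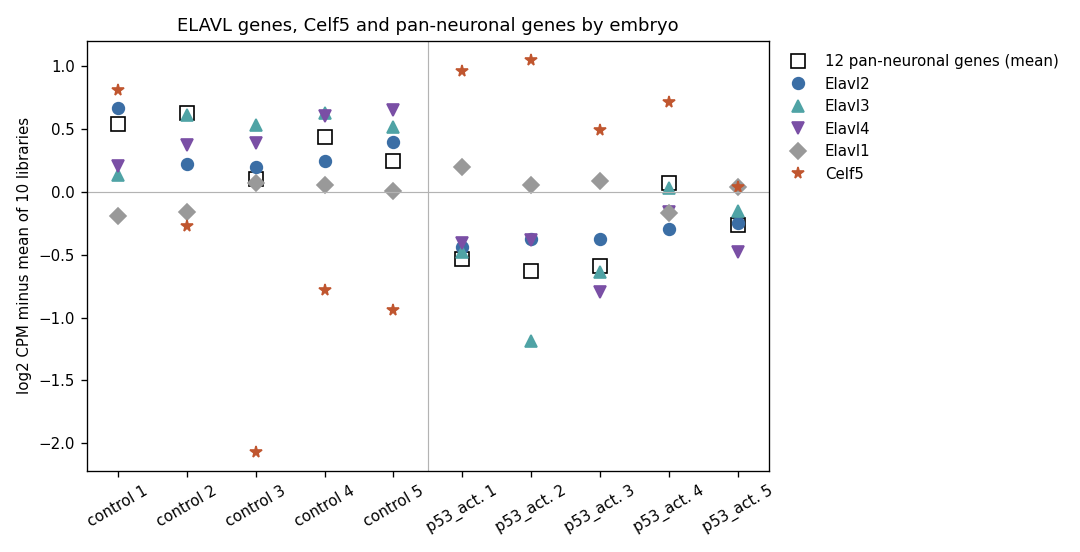
Log2 CPM minus the mean of the 10 libraries for Elavl1, Elavl2, Elavl3, Elavl4 and Celf5 and for the mean of 12 pan-neuronal genes, by embryo (5 control at the left, 5 p53_activated at the right). The neuronal ELAVL genes and the pan-neuronal mean lie above 0 in all controls, Elavl1 stays near 0, and Celf5 is low in control replicates 2 to 5 and high in control replicate 1.

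Markers of other cell types that a sort from embryos could carry were read in the same libraries. Summed levels of 6 epithelial genes (Krt18, Krt8, Esrp1, Epcam and others) were 73.8 to 176 CPM in control and 41.0 to 119.6 CPM in p53_activated embryos. They were 817 to 4427 and 493 to 5935 CPM for 6 erythroid genes, 13.0 to 62.8 and 23.5 to 46.8 CPM for 6 macrophage genes, 15.7 to 56.6 and 25.3 to 42.7 CPM for 6 endothelial genes, and 38.2 to 81.2 and 29.5 to 55.4 CPM for 6 muscle genes. Ptprc, Cdh5 and Myod1 were at 0 in at least 1 library. Of the tested genes of these 5 lists 0 were called by edgeR, and 2 epithelial and 2 muscle genes were lower at an unadjusted p under 0.05, while DESeq2 called 2 and limma-voom 1 muscle gene lower. All 6 epithelial genes (median log2 fold change -0.81) and 5 of 6 muscle genes (median -0.65) had negative values. The summed ranges overlapped between groups in all 5 lists, and their part in the results on the members was not tested.

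The members were set beside other regulators of RNA processing. Of 19 other splicing regulators 1 fell and 1 rose by edgeR, and their log2 fold changes had a median of -0.02. Without adjustment, 6 of the 19 were lower and 3 higher at an edgeR p under 0.05. The share of all tested genes at that unadjusted threshold was not counted. Celf2, a CELF gene of brain, heart and muscle, ran from 38.4 to 51.6 CPM in control and from 25.5 to 34.4 CPM in p53_activated embryos without overlap, a log2 fold change of -0.46 ± 0.12 (edgeR adjusted p = 0.0293). The call was lost without control replicates 2, 3 or 5 or p53_activated replicates 2 or 3 (adjusted p up to 0.0748). Ptbp1, which represses neuronal exons in cells that are not neurons, was at 18.8, 19.6, 18.2, 20.9 and 30.5 CPM in control and at 27.7, 32.9, 36.1, 86.0 and 71.6 CPM in p53_activated embryos. The groups overlapped by 1 control embryo, and p53_activated replicates 4 and 5 were far above the rest. The log2 fold change was 1.24 ± 0.32 (edgeR adjusted p = 0.0416). This call was lost without control replicates 1, 2, 3 or 4 or p53_activated replicates 4 or 5 (adjusted p up to 0.119). It was lost without both control replicates 1 and 2 as well (adjusted p = 0.235). Other genes, Gm17134 the most, overlap up to 20.7% of the exon length of Ptbp1. Its neuronal counterpart Ptbp2 did not pass (-0.02 ± 0.11, adjusted p = 0.934). Khdrbs1 (-0.15), Msi1 (0.18), Celf1 (0.11) and Qk (0.07), the most abundant of the rest, did not pass either. Rbfox3, which encodes the neuronal nuclear antigen NeuN, and Celf6 were named after their values were seen. Their groups did not overlap, but Rbfox3 (-0.63 ± 0.22, adjusted p = 0.0939) and Celf6 (-1.38 ± 0.44, adjusted p = 0.0686) did not pass.

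Of 21 regulators of message stability and translation 2 rose and 0 fell by edgeR (1 lower at an unadjusted p under 0.05, and 0 lower by DESeq2 and by limma-voom), and their log2 fold changes had a median of 0.07. Rbm38, an RNA-binding protein gene known as a p53 target, was at 3.87, 7.63, 8.93, 11.4 and 10.6 CPM in control and at 26.9, 19.2, 26.8, 23.7 and 22.5 CPM in p53_activated embryos. The groups were well apart, with a log2 fold change of 1.49 ± 0.23 (edgeR adjusted p = 0.000742). Other genes, Gm14453 the most, overlap up to 13.4% of the exon length of Rbm38. Igf2bp1, a binder of growth-related messages in the embryo, ran from 195 to 279 CPM in control and from 297 to 358 CPM in p53_activated embryos, 0.37 ± 0.10 (adjusted p = 0.0405). Its call was lost without control replicates 1, 2 or 5 or p53_activated replicates 2, 3, 4 or 5 (adjusted p up to 0.108) or both control replicates 1 and 2 (adjusted p = 0.159). Igf2bp2 (-0.10), Fxr2 (0.01), Fxr1 (-0.05), Pum2 (0.07) and Igf2bp3 (-0.09) did not pass.

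**Figure D5:**
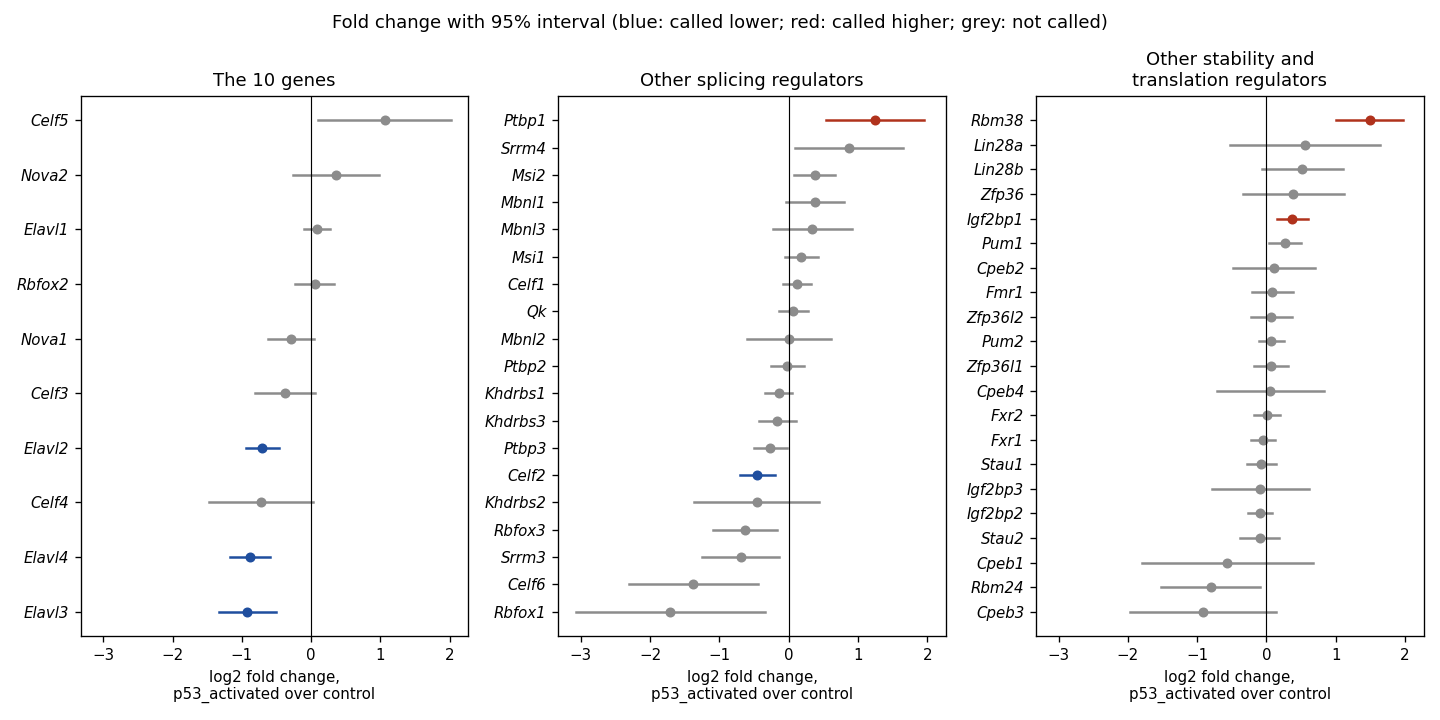
Log2 fold change of p53_activated over control with its 95% interval for the 10 genes, 19 other splicing regulators and 21 regulators of stability and translation, each sorted by size. Blue marks genes called lower and red genes called higher at an adjusted p under 0.05, and grey the rest; the 3 neuronal ELAVL genes are the called members.

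The mean centred log2 CPM of the 8 members other than Elavl1 and Rbfox2 joins 6 members with negative and 2 with positive log2 fold changes. It ran from -0.18 to 0.42 in control and from -0.37 to 0.18 in p53_activated embryos, and was highest in control replicates 1 and 2 (0.42 and 0.39). The genes most like this mean were found by the Pearson correlation across the 10 libraries. The 5 highest were Trim67 (r = 0.955), Anxa6 (0.953), Cldn11 (0.952), P4ha1 (0.950) and Stx17 (0.950), of which Anxa6, an annexin gene, was called lower (log2 fold change -0.63 ± 0.17, edgeR adjusted p = 0.0397). After the group means were removed the 5 highest were Mapt (0.971), which encodes the axonal protein tau and is also one of the 12 pan-neuronal genes, Dpysl3 (0.968), a gene of growing axons, Myo6 (0.963), Rhov (0.961) and Col1a1 (0.958). Mapt (-1.40 ± 0.34, adjusted p = 0.0308) and Dpysl3 (-0.59 ± 0.12, adjusted p = 0.00654) were called lower. These are descriptions over 10 libraries, whose depth, cell make-up and, in the first set, split by genotype all genes share.

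On GRCm38, per GENCODE M21, all 4 ELAVL genes are on the minus strand. Elavl1 (ENSMUSG00000040028) lies on chromosome 8 from 4285382 to 4325413, Elavl2 (ENSMUSG00000008489) on chromosome 4 from 91250763 to 91400785, Elavl3 (ENSMUSG00000003410) on chromosome 9 from 22015005 to 22052023 and Elavl4 (ENSMUSG00000028546) on chromosome 4 from 110203722 to 110351909. Celf5 (ENSMUSG00000034818) lies on chromosome 10 from 81459227 to 81482709. Of all stretches of 50 bases in the transcripts of each member, none was found in another ELAVL, NOVA, CELF or RBFOX gene, save 2 of 6936 in Elavl3 that also occur in Celf6. Elavl3 shares up to 3.72% of its exon length with other genes, the most with Gm49318, which is listed at 0 counts. Elavl1 shares up to 1.97%, the most with Ccl25 on the other strand.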

How the data were processed

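Polyadenylated RNA of flow-sorted cells was sequenced from 10 mouse embryos, 5 per genotype. Raw counts for each Ensembl gene were deposited by the authors, and columns were matched to samples by the sample numbers of the descriptions. GRCm38 is the build, and HTSeq 0.6.1, HISAT2 2.0.4, DESeq2 1.14.1 and SAMtools 1.3.1 the tools, listed without roles in the submitters' processing notes. Neither the annotation release nor the strand setting was found in the sources used here. Per the file headers, the authors' deposited comparison holds the mean normalized count (a signal), log2 fold change, test statistic (a score) and p-values of each gene.

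Genes were kept by filterByExpr (minimum count 10, total 15), given TMM factors, and tested in edgeR 4.0.16 (R 4.3.3) by robust quasi-likelihood without covariates over 14528 genes, with Benjamini-Hochberg adjustment and a threshold of 0.05. Adjusted p are from this test unless another is named. Standard errors are the fold change over the square root of F. CPM are TMM-scaled, log2 CPM used a prior count of 2, and RPKM divide by the union of GENCODE M21 exons. Differences within a library were tested by exact two-sided permutation (SciPy 1.17.1). The fits were also tested on simulated data, where 35.4% of 1.5-fold, 65.5% of 2-fold and 96.8% of 4-fold changes were recovered. Of 131 calls there, 4 were false. Between any pair of libraries, chi-square over degrees of freedom was 14.9 to 71.5, so none was counted as a repeat of another.

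The members and lists were chosen with earlier results of these data known. Named were the 10 members, Trp53, Cdkn1a and Mdm2 as a check, list members that passed and the 5 most abundant that did not, up to 4 markers per list, and the 5 genes most like the members by each measure. Alternatives were RLE, upper quartile and total count scaling, other filters, DESeq2 1.42.0, limma-voom (limma 3.58.1), non-robust dispersions, a prior count of 0.5, the replicate block and leaving out each library. The fit without both control replicates 1 and 2 was added later. Some results of the neurogenic and neural crest lists are not reported here.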

Additional observations from a re-analysis of the deposited data

Results flagged for a closer look

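In 28 groups of 5 embryos, 14 genes by 2 genotypes, the gap between an extreme embryo and its nearest neighbour, divided by the range of the group, passed the critical value of 0.71 in 3 cases, and chance flags about 1 in 20 groups. Elavl3 was low in control replicate 1 (178 CPM, gap over range 0.749), the library that also stood apart in embryonic globins and Lin28a. Rbfox2 was high in p53_activated replicate 4 (121 CPM, 0.730). Ptbp1 was high in control replicate 5 (30.5 CPM, 0.778).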

How the results depend on the processing

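Over 20 alternatives for each of the 10 members, 194 of 200 values kept their side of the threshold and none of the called values changed sign. Elavl2 (-0.74 to -0.61) and Elavl4 (-0.98 to -0.79) were called lower under all 20. The exceptions are the losses of Elavl3 and the gains of Celf5 given with their values above, to which the replicate block adds Celf5 (1.29, adjusted p = 0.029). The cause of these changes was not tested.

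All called genes numbered 1050, 1621 with DESeq2, 656 without both control replicates 1 and 2, and 636 to 1025 on leaving out 1 library. Members called lower were 2 to 3. Members called higher (0) were 1 with limma-voom, with the replicate block and without both control replicates 1 and 2, and 0 to 1 on leaving out 1 library. Other splicing regulators called lower (1) were 3 with DESeq2, 0 with the replicate block and 0 to 1 on leaving out 1 library. Those called higher (1) were 0 with total count scaling, with no filter and without both control replicates, and 0 to 2 on leaving out 1 library. Stability and translation regulators called higher (2) were 1 with upper quartile scaling and without both control replicates, and 1 to 2 on leaving out 1 library. Within-library differences that passed (7) were 6 to 7 on leaving out 1 library. They were 0 without both control replicates, where 3 against 5 embryos give an exact p of at least 0.0357, and 0 with the replicate block, where 5 pairs give at least 0.0625 and none could pass.

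Deviations of same-numbered embryos from the group means correlated at -0.05 to 0.11, and not every library correlated best with its own number. The sample labels name no litter, so embryos of the same litter could not be matched, and no fit had a litter term. The replicate block moved the count of all calls from 1050 to 804. Celf5 had as few as 50 counts and Celf4 99 in a library, against at least 1352 for Elavl3. Their coefficients of variation between control embryos were 75.2% and 34.9%, against 12.9% for Elavl3, and the part of depth in them was not tested.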
